A study of Gossypium herbaceum with 12 samples.

Results

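The leaf transcripts described here belong to genes that build or loosen the plant cell wall, measured in irrigated and drought-stressed plants of 2 accessions of the cotton Gossypium herbaceum. The 50 members are probe sets of the Affymetrix Cotton Genome array, out of 24132. They were taken from the study's 4 lists of probe sets called higher in either accession, 1712 probe sets in all, by words in the annotation: cell wall, cellulose, expansin, xyloglucan, pectin, pectate, beta-galactosidase, arabinogalactan, fasciclin or glycosyl hydrolase. By annotation, 10 members were pectin enzymes or their inhibitors, 10 beta-galactosidases, 9 expansins, 7 cellulose synthases or cellulose synthase-like proteins, 5 glycosyl hydrolases, 4 structural wall proteins, 3 xyloglucan enzymes and 2 arabinogalactan proteins. The annotations are top hits in Arabidopsis, not cotton gene models, and several probe sets may read the same transcript. Each of 4 groups held 3 month-old potted greenhouse plants, with leaf RNA of 1 plant on each array. Vagad was the drought-tolerant accession and RAHS-14 the sensitive accession; drought plants were watered in alternate weeks only, and the irrigated controls daily.

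The wall of a growing leaf cell is a network of cellulose microfibrils held in xyloglucan and other hemicelluloses and embedded in pectin. Cellulose synthases spin the microfibrils at the plasma membrane. Expansins loosen the bonds between polysaccharides without cutting them, xyloglucan endotransglycosylases cut and rejoin xyloglucan, and pectinesterases, pectate lyases and beta-galactosidases trim or cut pectin and its side chains. Leaf growth slows when water is short, and these enzymes help to set how far a wall can stretch.

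The members were chosen by accession differences in signal that the study measured on these same plants. The lists were those of probe sets higher in irrigated Vagad, with 10 members, in irrigated RAHS-14, with 24, in Vagad under drought, with 17, and in RAHS-14 under drought, with 6. Of the members, 43 stood on 1 list and 7 on more than 1. The accession differences are therefore given below as a description with no test, and the same holds for the difference between the accessions in their drought response. Tests were made only of drought against irrigated plants within an accession and of the mean of these responses. These contrasts share arrays with the rule, so a place on a list could still tilt them, and counts are given by list where that matters.

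Vagad drought plants 1 and 2 gave arrays unlike the other 10. Their median deposited signals were 323 and 346, against 61.3 to 74.7. Their median Spearman correlations with the 10 across probe sets were 0.594 and 0.438. For each of the 10 with the rest of the 10, this median was 0.944 to 0.957. Of the 50 members, 36 on plant 1 and 38 on plant 2 lay outside the range of the other 10 arrays. Tag controls, which have no cotton target, read 89.0 and 96.7 there, against 1.36 to 7.43. The tests therefore rest on 10 arrays, in which Vagad under drought is plant 3 alone, its spread taken from the remaining groups, and values with all 12 arrays stand beside the calls and the accession differences under drought. Leaf markers were sought by annotation among the 1712 listed probe sets only, and 1 was found, annotated as the D1 photosystem subunit. Its deposited signals were 114.9 to 378.5 on the 10 arrays and 990.9 and 102.4 on plants 1 and 2.

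In the sensitive accession RAHS-14, wall-loosening transcripts were lower under drought in a small set of members and higher in a single expansin. Levels are log2 signals after normalization, and a probe set was called when limma's adjusted p was under 0.05 and the change at least 2-fold. Of the 50 members, 46 passed the filter on low signals. In RAHS-14, 7 of these fell (15.2%) and 1 rose (2.17%), against 4.62% and 3.47% of the 12599 probe sets tested. The 7 that fell were 3 pectate lyases, 1 xyloglucan enzyme, 2 beta-galactosidases and 1 wall domain protein, and the member that rose was an expansin A8. Among the other listed probe sets, 9.93% fell and 10% rose. Counted either way, 8 of 46 members were called (17.4%), against 8.09% of all probe sets and 19.9% of the other listed ones.

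The lists bear on these counts. Of the 31 tested members whose list leaned toward a fall in RAHS-14, 5 fell and 1 rose; of the 10 whose list leaned toward a rise, 0 were called by limma with or without adjustment of p; and of the 5 on lists of both kinds, 2 fell. The median difference over the 46 members was -0.19, against 0.00446 over all probe sets tested, and 16 of 46 were above 0. The RAHS-14 groups did not overlap for 26 of 46 members (56.5%), near the 53.9% of all probe sets. For control transcripts, 3' probe sets exceeded 5' ones by a log2 ratio of 1.33 to 1.75 in the drought plants of RAHS-14 and of 1.80 to 2.05 in its irrigated plants. Of 4 listed probe sets matched by the words seed storage or fiber, 1 is annotated as a fiber protein. The others carry the family name protease inhibitor/seed storage/lipid transfer protein, so they need not mark seed tissue. Of the latter, 1 was brighter under drought, at 4912 to 5337 against 3025 to 3488. The fiber protein was the largest part of the summed signal of the 4 in RAHS-14. The rise of that sum, 11860 to 12640 against 10480 to 11480, came from the brighter probe set. Another was dimmer, at 11.0 to 30.5 against 52.3 to 90.2, and the remaining 2 overlapped, at 0.7 to 6.9 against 4.8 to 21.8 and at 6549 to 7277 against 7163 to 7922. The D1 probe set was at 356.9 to 378.5 against 208.5 to 338.2, and the part of these shifts in the result was not tested. In whole leaves, fewer cells of a type and less RNA per cell cannot be told apart.

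In Vagad, the drought plant 3 had 3 members called higher (6.52%) and 5 called lower (10.9%) than the 3 irrigated plants, against 4.47% and 5.79% of all probe sets tested and 7.88% and 12.5% of the other listed ones. Those called higher were 2 expansin A8 probe sets and a pectinesterase. Those called lower were 3 beta-galactosidases, a glycosyl hydrolase and the wall domain protein that also fell in RAHS-14. All 3 called higher came from the list of probe sets higher in Vagad under drought, which leaned toward a rise there. Of the 31 tested members whose list leaned toward a rise in Vagad, 3 rose and 2 fell; of the 10 leaning toward a fall, 0 were called by limma, also at an unadjusted p with the same fold; and of the 5 on lists of both kinds, 3 fell. The summed signal of the 4 probe sets with fiber or seed storage/lipid transfer annotations was 16560 in drought plant 3 against 10540 to 11880 in irrigated Vagad. For control transcripts, the log2 ratio of 3' to 5' probe sets was 1.95 in drought plant 3 and 1.61, 0.897 and 1.79 in irrigated Vagad. On plants 1 and 2 it was 0.597 and -0.71, and the part of these shifts in the result was not tested. Of these 8 called members, plant 1 lay on the same side of the irrigated mean for 7 and plant 2 for 6. With all 12 arrays, 3 of the 8 stayed called in Vagad and 3 of the 8 in RAHS-14. That is 3 of 46 members (6.52%) in each accession, against 4.74% of all probe sets in Vagad and 1.01% in RAHS-14.

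Across both accessions, 1 member rose in both (2.17%) and 2 fell in both (4.35%), against 1.52% and 1.90% of all probe sets tested. A further 5 were called in RAHS-14 alone (10.9%) and 5 in Vagad plant 3 alone (10.9%), against 4.52% and 6.69%, and 33 were called in neither (71.7%), against 85.2%. Both responses had the same sign for 28 of 46 members (60.9%), against 63.8% of all probe sets tested. Averaged over the accessions, the response was called in 8 members, of which 7 fell (15.2%) and 1 rose (2.17%), against 3.83% and 2.94% of all probe sets.

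**Figure D1:**
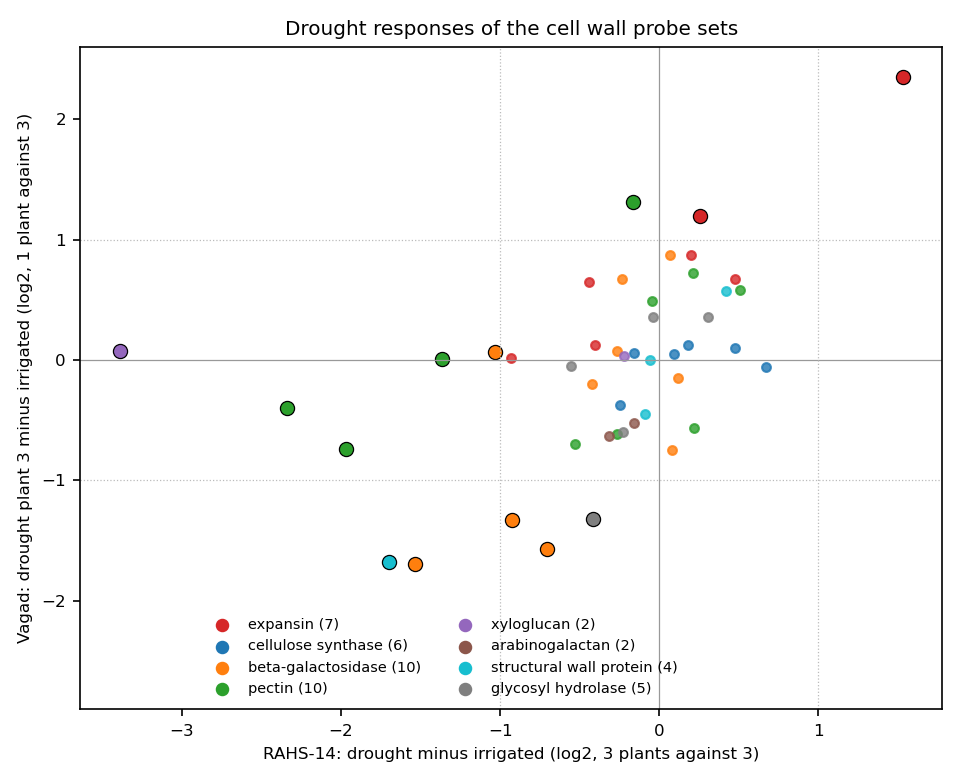
Log2 difference between drought and irrigated plants for the 46 tested members, in RAHS-14 (horizontal, 3 plants against 3) and in Vagad (vertical, drought plant 3 against 3 irrigated plants), coloured by class with the number tested. Large outlined points were called in either accession; the expansin A8 at 1.53 and 2.35 lies alone at upper right, and the xyloglucan enzyme at -3.39 lies alone at far left.

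Pectate lyases, which cleave de-esterified pectin, were lower under drought in RAHS-14 in all 3 probe sets. For the first, on both RAHS-14 lists, the log2 signal was 12.52, 12.59 and 12.38 in irrigated and 10.11, 10.21 and 10.16 in drought RAHS-14 plants. It was 12.51, 12.50 and 12.17 in irrigated Vagad and 11.99 in drought plant 3, with 11.74 and 10.50 on plants 1 and 2. The 3 RAHS-14 drought plants lay below every other array. The RAHS-14 change was -2.34 ± 0.11 (SE, n = 3 per group), 5.05-fold lower (limma, adjusted p = 1.13e-06), and the Vagad plant 3 difference was -0.40 ± 0.15 (limma, adjusted p = 0.0754).

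The second pectate lyase came from the irrigated RAHS-14 list. Its log2 signal was 12.42, 12.46 and 12.34 in irrigated RAHS-14, 10.99, 11.13 and 11.01 in drought RAHS-14, 12.34, 12.25 and 12.68 in irrigated Vagad and 12.43 in Vagad drought plant 3. Again the RAHS-14 drought plants were below all others, while Vagad plants 1 and 2, at 12.30 and 12.21, were close to the irrigated plants. The RAHS-14 change was -1.36 ± 0.11 (limma, adjusted p = 3.34e-05), and that of Vagad plant 3 was 0.0049 ± 0.16.

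The third pectate lyase was dimmer, at 6.76, 7.0 and 7.32 in irrigated RAHS-14 and 4.80, 5.14 and 5.25 in drought RAHS-14. Irrigated Vagad plants had 6.95, 6.62 and 6.81, drought plant 3 had 6.05, and plants 1 and 2 disagreed at 6.16 and 9.74. The RAHS-14 groups did not overlap, and the change was -1.97 ± 0.17 (limma, adjusted p = 3.99e-05). The Vagad plant 3 difference of -0.74 ± 0.24 missed 2-fold. With all 12 arrays in the fit, the first and second pectate lyases stayed called in RAHS-14 (limma, adjusted p = 0.0174 and 0.0211) and the third did not (limma, adjusted p = 0.653).

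Pectinesterases strip methyl groups from pectin, which opens it to pectate lyases or to calcium cross-links. None of the 5 tested was called in RAHS-14. A pectinesterase from the Vagad drought list had log2 signals of 5.48, 5.14 and 4.99 in irrigated Vagad and 6.52 in drought plant 3, against 6.82, 6.49 and 6.73 in irrigated and 6.60, 6.74 and 6.21 in drought RAHS-14. Irrigated Vagad was the low group and drought plant 3 lay within the RAHS-14 range. It rose by 1.32 ± 0.24 in Vagad plant 3 (limma, adjusted p = 0.00472), but plants 1 and 2 read 8.61 and 3.77, on opposite sides of the irrigated plants, and it was not called with all 12 arrays (limma, adjusted p = 0.387). The other 4 differed by -0.53 to 0.50 in RAHS-14 and by -0.70 to 0.72 in Vagad plant 3. The pectin methylesterase inhibitor, which blocks these enzymes, differed by -0.04 and 0.49, and the pectin acetylesterase, which removes acetyl groups, by -0.26 and -0.61.

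The largest drought change among the members in RAHS-14 was in a xyloglucan enzyme. A xyloglucan:xyloglucosyl transferase from the Vagad drought list had deposited signals of 1138, 1293 and 1271 in irrigated RAHS-14 and of 129, 103 and 134 in drought RAHS-14. In log2 after normalization these were 10.14, 10.34 and 10.30 against 6.94, 6.65 and 7.02. Irrigated Vagad plants had 7.65, 7.72 and 7.95 and drought plant 3 had 7.85, with 6.86 and 4.63 on plants 1 and 2. Irrigated RAHS-14 was the high group, and drought RAHS-14 lay below the irrigated plants of both accessions. The RAHS-14 change was -3.39 ± 0.12, or 10.5-fold lower (limma, adjusted p = 4.42e-07, and 0.0425 with all 12 arrays), while that of Vagad plant 3 was 0.08 ± 0.17. The other xyloglucan endotransglycosylases were steadier or dim. A bright one from the irrigated RAHS-14 list differed by -0.22 in RAHS-14 and 0.04 in Vagad plant 3. A dim one from the Vagad drought list did not pass the filter, with log2 signals of 3.36 to 5.08 on the 10 arrays, where 3.36 is the floor.

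**Figure D2:**
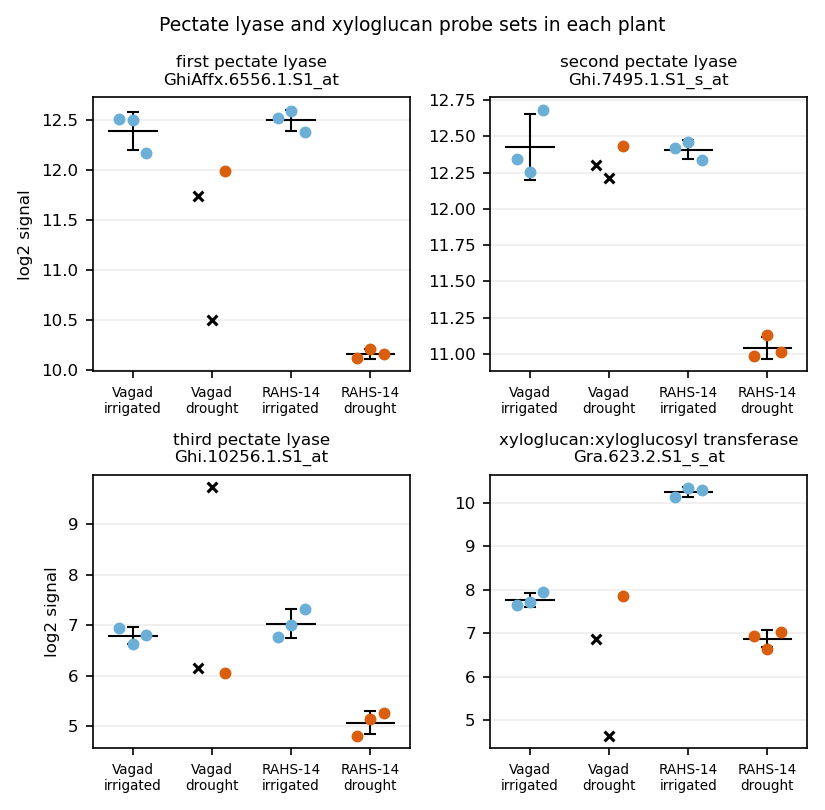
Normalized log2 signal in each plant for 3 pectate lyases and the xyloglucan:xyloglucosyl transferase, by group; blue points are irrigated plants, orange points drought plants, black crosses Vagad drought plants 1 and 2, and lines show mean and SD of groups of 3. The RAHS-14 drought plants are below both irrigated groups in all 4 panels, and in the xyloglucan panel irrigated RAHS-14 lies at 10.14 to 10.34.

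The only member that rose in both accessions was an expansin. The first of 3 expansin A8 probe sets, from the Vagad drought list, had log2 signals of 9.33, 9.09 and 9.27 in irrigated and 10.73, 10.77 and 10.77 in drought RAHS-14. In Vagad it was 9.12, 9.28 and 9.37 in irrigated plants and 11.61 in drought plant 3, with 11.73 and 10.43 on plants 1 and 2. Every drought plant, plants 1 and 2 included, was above every irrigated plant. The rise was 1.53 ± 0.09, or 2.89-fold, in RAHS-14 (limma, adjusted p = 4.94e-06) and 2.35 ± 0.13, or 5.10-fold, in Vagad plant 3 (limma, adjusted p = 1.2e-05). With all 12 arrays it was called in Vagad (limma, adjusted p = 0.0135) and missed the threshold in RAHS-14 (limma, adjusted p = 0.0823). Its list leaned toward a fall in RAHS-14, where it rose.

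The second expansin A8 probe set, chosen for description after its values were seen, had 9.64, 9.66 and 9.68 in irrigated Vagad and 10.85 in drought plant 3, against 10.05 ± 0.05 (SD, n = 3) in irrigated and 10.27, 10.27 and 10.38 in drought RAHS-14. Vagad drought plant 3 was the highest of the 10 arrays, and RAHS-14 drought plants were above their irrigated controls by less than 2-fold. The changes were 1.19 ± 0.10 in Vagad plant 3 (limma, adjusted p = 6.34e-05, and 0.134 with all 12 arrays) and 0.26 ± 0.07 in RAHS-14. The platform table gives this probe set and the third expansin A8 the same locus, LOC107904848. The third, on both Vagad lists, differed by 0.13 in Vagad plant 3 and by -0.40 in RAHS-14, and its Vagad drought plants 1 and 2, at 9.30 and 9.41, were far above the 5.50 to 6.33 of the other 10 arrays.

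Of the other expansins, none was called. An expansin A10 from the irrigated Vagad list had 8.88, 8.81 and 8.67 in irrigated RAHS-14 and 7.79, 8.02 and 7.77 in its drought plants, a difference of -0.93 ± 0.13 that was just under 2-fold (limma, adjusted p = 0.000733). Its irrigated Vagad plants, at 7.80, 7.73 and 7.34, and drought plant 3, at 7.64, lay near the drought level of RAHS-14. Vagad drought plants 1 and 2 read 9.80 and 10.10, above the other 10 arrays. An expansin A and an expansin A5 have identifiers that name the same source sequence. Both stood on the irrigated RAHS-14 and the Vagad drought lists. They differed by 0.20 and 0.48 in RAHS-14 and by 0.87 and 0.67 in Vagad plant 3. Against irrigated Vagad, plants 1 and 2 differed by 1.47 and 3.11 for the expansin A. For the expansin A5 these plants differed by -1.56 and -1.86. In all, 7 of 7 tested expansins had values above 0 in Vagad plant 3 and 4 of 7 in RAHS-14, with medians of 0.67 and 0.20. Over all probe sets these shares were 49.8% and 50.5%. Of these 7 expansins, 5 came from the list of probe sets higher in Vagad under drought, which leans toward that sign. The list of the expansin A4, irrigated RAHS-14, leans the same way. With all 12 arrays 6 of 7 were above 0 in Vagad, against 28.5% of all probe sets tested. Another expansin A5 and an expansin A6 did not pass the filter; the former was at or near the floor, at 3.36 to 4.67, on all 10 arrays and at 10.32 on Vagad drought plant 1.

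Beta-galactosidases, which remove terminal galactose from pectin and xyloglucan side chains, moved downward where they were called. The beta-galactosidase 1, on both RAHS-14 lists, had log2 signals of 11.05, 11.07 and 11.08 in irrigated Vagad and 9.38 in drought plant 3. In RAHS-14 it was 10.39, 10.18 and 10.36 in irrigated and 8.91, 8.63 and 8.78 in drought plants. Drought plants of both accessions were below all irrigated plants, and plants 1 and 2, at 8.21 and the floor of 3.36, lay lower still. The changes were -1.54 ± 0.09 in RAHS-14 and -1.69 ± 0.13 in Vagad plant 3 (limma, adjusted p = 4.95e-06 and 5.49e-05); with all 12 arrays neither was called (limma, adjusted p = 1 and 0.0659).

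The second beta-galactosidase, from the irrigated RAHS-14 list, had 9.83, 9.75 and 9.75 in irrigated and 8.71, 8.82 and 8.70 in drought RAHS-14, groups that did not overlap. The change of -1.03 ± 0.11 (limma, adjusted p = 0.000154) was barely 2-fold, and with a normalization target from all 12 arrays it was -0.94 and under that fold. In the fit of all 12 arrays it was not called (limma, adjusted p = 1). Vagad plant 3, at 9.66, lay within its irrigated plants' 9.44 to 9.86, but plants 1 and 2 read 4.59 and 7.07.

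The third and the fourth, each on both RAHS-14 lists, fell in Vagad plant 3 by more than 2-fold. The third had 7.77, 8.14 and 8.13 in irrigated Vagad and 6.68 in drought plant 3, and 7.69, 7.96 and 7.89 against 6.62, 7.14 and 7.0 in RAHS-14. The fourth had 6.21, 6.69 and 6.20 against 4.80 in Vagad, and 6.78, 6.33 and 6.12 against 5.41, 5.92 and 5.78 in RAHS-14. In both accessions the drought values lay below the irrigated ones, apart from Vagad plant 2 for the third and plant 1 for the fourth. For the third the changes were -1.33 ± 0.22 in Vagad plant 3 (limma, adjusted p = 0.00299) and -0.93 ± 0.16 in RAHS-14, where 2-fold was not reached. For the fourth they were -1.57 ± 0.30 (limma, adjusted p = 0.00549) and -0.70 ± 0.21. Plant 2 read 8.06 for the third and plant 1 read 8.57 for the fourth, within or above the range of the irrigated plants. Below that range, plant 1 read 4.01 for the third and plant 2 was at the floor of 3.36 for the fourth. With all 12 arrays neither probe set was called in Vagad. The 6 remaining beta-galactosidases differed by -0.42 to 0.12 in RAHS-14 and by -0.75 to 0.88 in Vagad plant 3, and none was called.

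**Figure D3:**
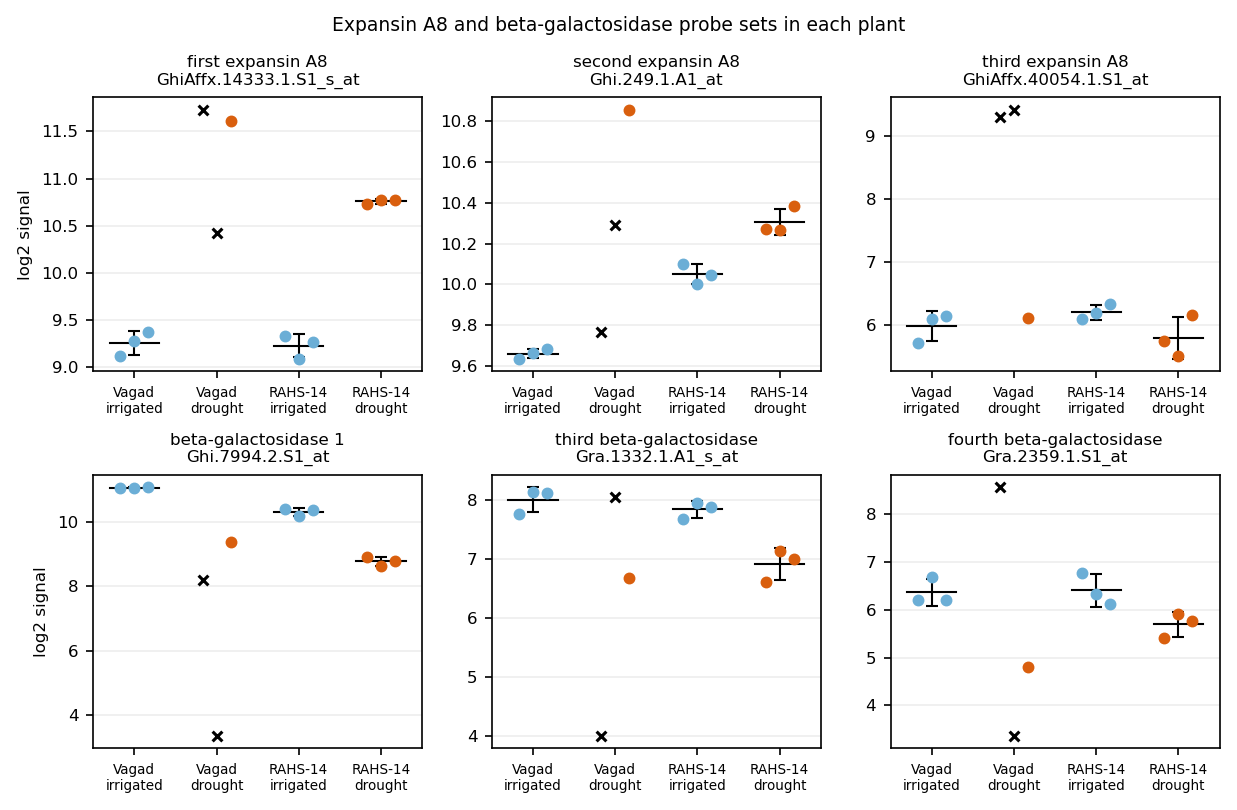
Normalized log2 signal in each plant for 3 expansin A8 and 3 beta-galactosidase probe sets, by group; blue points are irrigated plants, orange points drought plants, black crosses Vagad drought plants 1 and 2, and lines show mean and SD of groups of 3. The first expansin A8 is at 10.43 or higher in all 6 drought plants and at 9.37 or lower in all 6 irrigated plants. In the 3 beta-galactosidases the orange points are below the blue points of the same accession, and the crosses vary.

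Cellulose synthase transcripts, which encode the enzyme that spins cellulose, had 0 calls of 6 tested in either accession by limma, also at an unadjusted p with the same fold. Their differences ran from -0.25 to 0.67 in RAHS-14 and from -0.37 to 0.13 in Vagad plant 3, with medians of 0.14 and 0.05. Over all 12 arrays the Vagad median was -1.68, against -0.74 over all probe sets tested and -0.84 over the other listed ones. The 6 values ran from -2.57 to 1.13. The cellulose synthase-like A3 probe set, whose Arabidopsis family makes mannans, was the member at -0.25 and -0.37. A cellulose synthase from the irrigated Vagad list had 5.13, 5.13 and 5.57 in irrigated and 5.53, 5.96 and 6.34 in drought RAHS-14, where the groups overlapped. A dim cellulose synthase from the same list did not pass the filter, with 3.36, 4.30 and 3.81 in irrigated RAHS-14 and 5.31, 5.28 and 4.38 in irrigated Vagad.

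Among the structural wall proteins, a probe set annotated only as a plant-type cell wall domain protein fell in both accessions. Its log2 signal was 11.38, 11.20 and 11.22 in irrigated and 9.57, 9.59 and 9.56 in drought RAHS-14, and 10.38, 10.38 and 10.48 in irrigated Vagad against 8.73 in drought plant 3. Drought plants lay below the irrigated plants of both accessions, and plants 1 and 2 were at the floor. The changes were -1.70 ± 0.07 in RAHS-14 and -1.68 ± 0.10 in Vagad plant 3 (limma, adjusted p = 9.29e-07 and 2.18e-05). With all 12 arrays it was called in Vagad (limma, adjusted p = 0.0356) and not in RAHS-14 (limma, adjusted p = 1). The 3 probe sets annotated as structural constituents of the wall were not called, and the brightest of all members was among them. It lay between 13.80 and 14.00 on the 10 arrays after quantile normalization, which gives the top ranks nearly the same values on every array. Its deposited signals on these 10 arrays ran from 11630 to 23624, the latter in Vagad drought plant 3. Vagad drought plants 1 and 2 read 211739 and 117203. The steadiness of this probe set is therefore not read as a result.

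The 2 fasciclin-like arabinogalactan proteins, cell surface glycoproteins, differed by -0.16 and -0.31 in RAHS-14 and by -0.52 and -0.63 in Vagad plant 3, with no call. Of the glycosyl hydrolases, a probe set from the irrigated RAHS-14 list had 9.43, 9.46 and 9.51 in irrigated Vagad and 8.14 in drought plant 3, with 5.37 and 6.58 on plants 1 and 2, all 3 below the irrigated plants. It fell by 1.32 ± 0.29 (limma, adjusted p = 0.0111, and 0.0310 with all 12 arrays), while in RAHS-14 the drought values of 8.43, 8.88 and 8.59 overlapped the irrigated 8.53, 9.29 and 9.32. The other 4 differed by -0.55 to 0.30 in RAHS-14 and by -0.60 to 0.36 in Vagad plant 3. The glycosyl hydrolase of family 18 belongs to a family that also holds chitinases, so its place among wall enzymes rests on the annotation alone.

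The accession differences, which chose the members, are given next without a test. Because a member can stand on more than 1 list, the 50 members made 57 list entries. In these normalized values the group that the list names was higher in 29 of the 57 (50.9%), and by at least 2-fold in 3 (5.26%). For the other listed probe sets these shares were 48.5% and 7.24% of 1975 entries. The named group was lower by at least 2-fold in 2 of the 57 entries and in 96 of the other 1975. Those 2 were the first pectate lyase on the drought RAHS-14 list, at -1.83, and the expansin A10 on the irrigated Vagad list, at -1.17. On all 12 arrays, 25 of the 57 entries were higher in the named group, 6 of them by 2-fold, and on the Vagad drought list 6 of 17 were, in place of 11. By list on the 10 arrays, 11 of 24 members were higher in irrigated RAHS-14 as listed, 11 of 17 in Vagad drought plant 3, 4 of 10 in irrigated Vagad and 3 of 6 in drought RAHS-14. The deposited signals are of another kind than the values the study tested, and the part of that difference in these shares was not tested.

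The 3 entries at 2-fold in the direction of their list were all dim members that did not pass the filter, the dim cellulose synthase at 1.16 in irrigated plants and the expansins A6 and A5 at 1.20 and 1.14 under drought. These expansins stood at 0.36 and 2.80 with all 12 arrays. The expansin A5 stood just above 2-fold on the 10 arrays and the xyloglucan:xyloglucosyl transferase, at 0.98, just below; the latter was at -0.42 with all 12. Among the tested members, 3 of 46 differed by 2-fold when irrigated, all higher in RAHS-14, where 2.06% of all probe sets were higher in RAHS-14 and 1.94% in Vagad. They were the xyloglucan:xyloglucosyl transferase at -2.49, the pectinesterase that rose in Vagad plant 3 at -1.48 and the expansin A10 at -1.17, as Vagad minus RAHS-14. Under drought, with Vagad plant 3, the first and second pectate lyases were higher in Vagad by 1.83 and 1.39, and a structural wall protein was higher in RAHS-14, at -1.05, against 3.87% and 5.64% of all probe sets. These were 1.25, 1.27 and -1.88 with all 12 arrays.

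Some of these differences were small beside those of the drought response. The RAHS-14 irrigated and drought plants differed by -2.34 in the first pectate lyase, for example, while the irrigated plants of Vagad and RAHS-14 differed by -0.11 and overlapped. In the xyloglucan:xyloglucosyl transferase irrigated RAHS-14 was high and the other groups of the 10 arrays within 6.65 to 7.95.

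**Figure D4:**
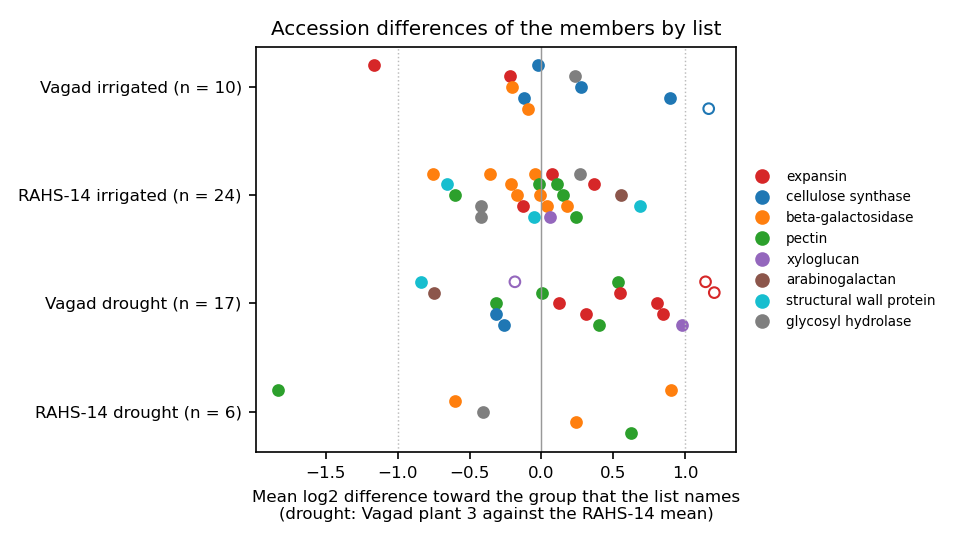
Accession difference of each member in log2, signed so that a positive value is higher in the group that its list names, for the 4 lists; filled points passed the filter on low signals and open points did not, and dotted lines mark 2-fold. Points lie on both sides of 0 on every list, and the 3 points past the upper line are open.

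Another 12 listed probe sets carry wall annotations that the chosen words did not reach, such as arabinofuranosidases, hydroxyproline-rich glycoproteins and xylosidases. Of the 10 tested, 1 rose and 1 fell in RAHS-14 and 2 rose and 1 fell in Vagad plant 3. The xylosidase, which trims xylan, fell by 1.87 in RAHS-14 and by 1.59 in Vagad plant 3 (limma, adjusted p = 2.02e-06 and 8.14e-05). The UDP-arabinose 4-epimerase, which supplies arabinose for wall polymers, rose by 1.04 and 1.67 (limma, adjusted p = 0.00135 and 0.00123). A beta galactosidase, written without the hyphen, differed by -0.996 and -0.982, just under 2-fold in both.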

How the data were processed

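Each of 12 Affymetrix Cotton Genome arrays carried leaf RNA of 1 plant. Groups were taken from the array titles, and p-values rest on the spread between plants within groups. In the main fit Vagad under drought was 1 plant. There, p-values that involve this group take their spread from the remaining groups and measure none between Vagad drought plants. The deposited intensity values are MAS5 signals on a linear scale, scaled by the authors so that the mean of each array, trimmed by 2% at each end, is 500.1. The methods name RMA values, log2 transformed, for the study's own tests; detection calls were not used here. Of 24132 probe sets, 103 were controls.

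Signals were quantile normalized to the mean of 10 arrays, which excludes Vagad drought plants 1 and 2 (these were mapped to the same target), raised to a floor of 10.3, each array's 20th percentile, and log2 transformed. The 12599 probe sets above the array median on at least 3 of the 10 arrays were fitted in limma 3.58.1 (R 4.3.3) with 4 group means, and p-values were adjusted by Benjamini and Hochberg over all of them. A call needed an adjusted p under 0.05 and a 2-fold change. The fit was checked on simulated data, and matplotlib 3.10.9 drew the figures. The number of arrays limits the precision.

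Members and lists were chosen with earlier results of these data known. Named in each class were up to 3 members called in RAHS-14 without overlap, the 2 with the largest accession difference, those on more than 1 list, and those just above and below 2-fold. Others named were chosen after their values were seen. Probe sets are named by annotation, with an ordinal where several share it; names are the Arabidopsis hits in the study's lists, and 6 members have a locus in the platform table. Alternatives were other array sets, scalings, floors, filters, thresholds and spread models, a replicate block, the methods' t-test and each array left out.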

Additional observations from a re-analysis of the deposited data

Results flagged for a closer look

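In 2 of 46 tested members (4.35%), against 3.89% of all probe sets, the drought plants of each accession lay wholly outside the range of its irrigated plants, in opposite directions. Both were chosen here after their values were seen, and the difference itself was not tested because membership rests on it. The expansin A4 probe set had a log2 drought difference of -0.4417 in RAHS-14, and all 3 drought plants lay below every irrigated plant, while all 3 Vagad drought plants, plants 1 and 2 included, lay above every irrigated Vagad plant, at a mean of 0.5588. A pectinesterase from the irrigated RAHS-14 list ran the other way, with 0.22 in RAHS-14 and -2.024 over the 3 Vagad plants, of which plants 1 and 2 gave -1.24 and -4.27 and plant 3 gave -0.57.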

How the results depend on the processing

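With all 12 arrays, 3 members in place of 8 were called in RAHS-14, 3 in place of 8 in Vagad and 4 in place of 8 in the mean response, and 23 in place of 3 differed by 2-fold between the accessions under drought (50%, against 52.6% of all probe sets). Among the latter, the second beta-galactosidase turned from 0.92 to -1.638. Vagad drought plants 1 and 2 in place of plant 3, tried after the data were seen, gave 23 calls in Vagad. Where no share of all probe sets stands beside a count, the count is not read as a result about the members. With no fold required, 19, 18 and 29 members were called in RAHS-14, in Vagad and in the mean response (41.3%, 39.1% and 63%, against 36.8%, 29.7% and 42.2% of all probe sets). Without the filter, 5 members differed by 2-fold under drought. The methods' t-test, with all 3 Vagad drought plants, called 3 members in Vagad unadjusted and 0 after Benjamini-Hochberg adjustment. Leaving out 1 plant gave 8 to 10 calls in RAHS-14, 8 in Vagad and 8 in the mean response, and 3 to 4 members at 2-fold when irrigated and 3 to 5 under drought; without RAHS-14 drought plant 1 or plant 2 it was 5. With the replicate number as a block the counts stayed at 8 in RAHS-14, 8 in Vagad and 8 in the mean response. Of 18 same-numbered pairs of arrays, 0 had residuals correlated above 0.1, so the numbers were not read as pairs. Under the other scalings, floors, filters and spread models, the counts of calls stayed within 1.5 times. With arrays aligned at their medians, the median change over all probe sets was -0.04 in RAHS-14 and -0.18 in Vagad plant 3. Why the counts moved was not tested.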
